A study of Homo sapiens with 4 samples.

Results

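The 10 genes described here encode surface proteins through which a tumour cell engages T cells and natural killer (NK) cells. They were taken by name from the table of counts, and all 10 were found among its 61806 genes and passed the filter on low counts. Counts came from RNA sequencing of U118-MG, an established human glioma cell line cultured in DMEM (10% fetal bovine serum). The SPNS2 cells (2 libraries) had been infected with a lentivirus that overexpresses SPNS2, an exporter of sphingosine 1-phosphate, and the control cells, called NC (2 libraries), with the negative control vector. Both groups carry the pCDH-CMV-MCS-EF1-puro backbone, in which a CMV promoter drives the insert, and all libraries are labelled WT for genotype. The labels do not say whether the cells were a clone or a pool, nor whether replicate libraries stem from cultures grown apart, so p-values measure only the spread between these libraries, which may be technical.

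CD274 (PD-L1) and PDCD1LG2 (PD-L2) bind PD-1, an inhibitory receptor of T cells, and CD276 (B7-H3) is a further member of the B7 family. NT5E (CD73) is an enzyme of the cell surface that makes adenosine, which dampens lymphocytes, from AMP. PVR and NECTIN2 are adhesion proteins that activate NK and T cells through DNAM-1 (CD226) and inhibit them through TIGIT or PVRIG. MICA, MICB, ULBP2 and ULBP3 are stress-induced ligands of NKG2D, an activating receptor of NK cells. In human cells CD274 is known as a target of interferon signalling through JAK, STAT and IRF proteins, and MICA and MICB as targets of the heat shock factor HSF1.

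The libraries held 31353373 and 34125159 counts in SPNS2 cells and 31513400 and 32992150 counts in NC cells, so that the floor of 3 counts in a library lay between 0.0892 and 0.0975 CPM. CPM are counts per 1000000 of the TMM-scaled library total, and each mean is given ± SD over 2 libraries. SPNS2 itself was read 7381 and 8224 times in SPNS2 libraries, against 42 and 47 times in NC libraries. Of 9 glioma and mesenchymal markers 6 were tested, and VIM was called higher and TNC and NES lower. VIM averaged 6524 ± 428 CPM in SPNS2 cells and 4392 ± 497 CPM in NC cells. TNC averaged 2126 ± 5.93 CPM in SPNS2 cells and 3690 ± 89.6 CPM in NC cells, and NES 10.5 ± 0.592 CPM in SPNS2 cells and 18.8 ± 2.197 CPM in NC cells. FN1, which was not called, averaged 12187 ± 49.4 CPM in SPNS2 cells and 11697 ± 133 CPM in NC cells. By edgeR the adjusted p was 0.0205 for VIM, 0.00138 for TNC and 0.0243 for NES. The call of VIM was lost without SPNS2 replicate 1 and with arm medians removed (edgeR adjusted p = 0.0599). It was also lost with a replicate block (0.0579) and in a test against a fold of 1.2 (0.0522). That of NES was lost without any 1 of the 4 libraries and with a replicate block (0.0535). With single libraries left out, log2 fold changes were 0.46 to 0.69 for VIM and -0.95 to -0.71 for NES. The glial markers GFAP, SOX2 and OLIG2 had at most 8 counts in any library. Of 10 lymphoid and myeloid markers, CD2, CD3D and MS4A1 were among those with no count in any library, and the 10 summed to 1.14 and 0.839 CPM in SPNS2 libraries and to 0.967 and 1.25 CPM in NC libraries.

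CD274, PVR and NECTIN2 rose in the SPNS2 cells and ULBP3 fell: CD274 rose 3.85-fold, PVR 1.87-fold and NECTIN2 1.48-fold, while ULBP3 fell 2.89-fold. The other 6 did not pass the test. The test was the two-sided quasi-likelihood test of edgeR, with p-values adjusted over 17853 genes by the Benjamini-Hochberg method and a call at an adjusted p under 0.05. It called 4 of the 10 genes and 23.4% of all genes tested, with 12.1% of all genes higher and 11.3% lower. The median log2 fold change of the 10 genes was 0.0014, beside -0.0085 over all tested genes. With single libraries left out, between 1 and 3 of the 10 were called higher and between 0 and 1 lower: 2 and 1 without NC replicate 1, 1 and 0 without NC replicate 2, 2 and 0 without SPNS2 replicate 1, and 3 and 1 without SPNS2 replicate 2. In a bulk RNA sample, fewer cells that express a gene and less of its RNA per cell cannot be told apart.

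**Figure D1:**
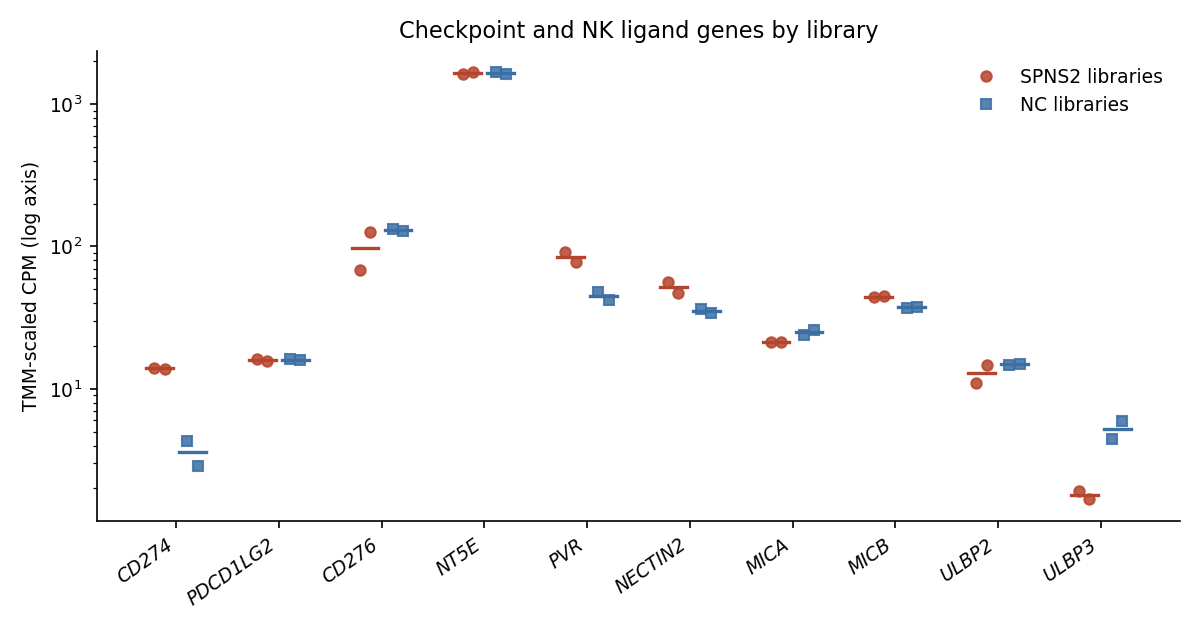
Levels of the 10 genes in each library, in TMM-scaled CPM on a log axis, with circles for SPNS2 libraries, squares for NC libraries and a bar at each group's mean. CD274 lies at 14.1 and 13.8 CPM in SPNS2 libraries and at 4.34 and 2.88 CPM in NC libraries, while the CD276 value of SPNS2 replicate 1 (68.0 CPM) stands below the other 3.

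The stretches of 300 bases around the RefSeq start sites (build GRCh38.p14, 250 bases before to 50 after the start) are shown for the 4 genes that passed the test, and for MICA and MICB, whose windows carry the same heat shock letters. Of the 10 genes, 9 had a window in that table. Capitals mark every match, on either strand, to the letters searched for factors known to act on these genes: a pair of GAAA words 2 bases apart for IRF factors, TTCNNNGAA for STAT factors, GGG and TTTCC 2 bases apart for NF-kB, ACGTG for HIF, GAANNTTC for HSF, GGGCGG for SP1 and TTTNGCGC for E2F.
CD274, chr9:5450292-5450591, plus strand: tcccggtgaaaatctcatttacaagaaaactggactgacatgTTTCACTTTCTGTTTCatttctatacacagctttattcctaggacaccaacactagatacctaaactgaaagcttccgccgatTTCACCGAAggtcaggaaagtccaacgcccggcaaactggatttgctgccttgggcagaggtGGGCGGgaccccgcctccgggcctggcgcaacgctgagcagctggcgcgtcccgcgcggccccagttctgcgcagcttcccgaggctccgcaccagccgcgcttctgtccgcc
PVR, chr19:44643660-44643959, plus strand: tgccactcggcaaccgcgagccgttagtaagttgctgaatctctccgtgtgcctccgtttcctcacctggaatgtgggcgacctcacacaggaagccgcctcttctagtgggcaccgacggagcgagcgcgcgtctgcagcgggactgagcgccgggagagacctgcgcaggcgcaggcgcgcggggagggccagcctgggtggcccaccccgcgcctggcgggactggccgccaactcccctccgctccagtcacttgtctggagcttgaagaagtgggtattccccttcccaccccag
NECTIN2, chr19:44846047-44846346, plus strand: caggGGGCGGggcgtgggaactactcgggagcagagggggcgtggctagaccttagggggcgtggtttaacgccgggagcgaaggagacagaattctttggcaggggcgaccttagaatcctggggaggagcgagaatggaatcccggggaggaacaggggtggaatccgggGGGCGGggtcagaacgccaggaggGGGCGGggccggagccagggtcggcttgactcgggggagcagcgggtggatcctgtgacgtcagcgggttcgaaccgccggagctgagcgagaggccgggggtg
ULBP3, chr6:150069072-150069371, minus strand: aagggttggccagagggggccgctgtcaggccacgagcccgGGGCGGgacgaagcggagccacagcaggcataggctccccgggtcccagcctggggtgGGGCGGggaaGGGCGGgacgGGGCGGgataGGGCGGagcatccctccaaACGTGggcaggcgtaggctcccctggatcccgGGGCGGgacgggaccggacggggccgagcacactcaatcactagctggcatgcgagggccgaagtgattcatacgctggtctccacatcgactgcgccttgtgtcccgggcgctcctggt
MICA, chr6:31403345-31403644, plus strand: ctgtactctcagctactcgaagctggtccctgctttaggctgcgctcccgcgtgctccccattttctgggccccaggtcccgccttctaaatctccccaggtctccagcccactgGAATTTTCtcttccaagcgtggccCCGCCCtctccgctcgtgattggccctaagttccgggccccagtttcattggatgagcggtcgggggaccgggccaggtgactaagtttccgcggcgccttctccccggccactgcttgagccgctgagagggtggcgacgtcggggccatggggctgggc
MICB, chr6:31497895-31498194, plus strand: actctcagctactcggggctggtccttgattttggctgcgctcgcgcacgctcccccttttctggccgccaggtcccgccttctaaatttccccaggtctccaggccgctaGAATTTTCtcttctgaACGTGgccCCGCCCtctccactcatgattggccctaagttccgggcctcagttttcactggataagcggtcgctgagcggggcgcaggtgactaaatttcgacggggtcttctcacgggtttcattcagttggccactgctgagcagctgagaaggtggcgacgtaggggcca

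The CD274 window held 2 IRF matches, at -208 and -202 from the start site, which overlap each other, a STAT match at -125 and an SP1 match at -63. An IRF match stood in 3.57% of the 35116 RefSeq windows of this length, and a STAT match in 7.66%. The windows of PVR and NECTIN2 shared none of the letters: PVR held no match, and NECTIN2 held 3 SP1 matches. ULBP3 held 6 SP1 matches and a HIF match at -102. SP1 letters stood in 45.0% of all windows and HIF letters in 21.4%. MICA and MICB held an identical HSF match, GAATTTTC, at -135 and -139, each followed by an SP1 match, with a HIF match at -123 in MICB, and HSF letters stood in 6.77% of all windows. The 2 windows were the same at 246 of 284 aligned bases (86.6%). No NF-kB match (1.91% of all windows) and no E2F match (1.79%) was found in the windows of the 9 genes. A match describes these letters and is not evidence of binding.

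CD274 had 433 and 459 counts in SPNS2 libraries and 139 and 97 counts in NC libraries. Both SPNS2 libraries lay above both NC libraries, and the groups did not overlap, in one direction or the other, for 66% of all tested genes. The NC libraries differed from each other by 1.504-fold. Its level was 13.9 ± 0.219 CPM in SPNS2 cells and 3.61 ± 1.03 CPM in NC cells, a log2 fold change of 1.95 (SE 0.25, 95% interval 1.29 to 2.60, edgeR adjusted p = 0.0115). CD274 was called in 15 of 15 alternative settings, with log2 fold changes of 1.68 to 2.27 and adjusted p-values of 3.1e-09 to 0.0445. The gene lies on chromosome 9 from 5450503 to 5470566 (hg38), and the tested genes of its arm, 9p, had a median log2 fold change of 0.15. With the arm medians removed, its value was 1.80.

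PDCD1LG2, the other PD-1 ligand, starts 40.0 kb beyond the end of CD274 (5510570 to 5571254). It had 500 and 527 counts in SPNS2 libraries and 516 and 540 in NC libraries, and the groups overlapped in CPM. Its level was 16.02 ± 0.317 CPM in SPNS2 cells and 16.1 ± 0.0344 CPM in NC cells, a log2 fold change of -0.0048 with a 95% interval from -0.30 to 0.29 (edgeR adjusted p = 0.981). The interval therefore leaves room for a change of up to 1.23-fold. The CD274 count was 0.866 and 0.871 times that of PDCD1LG2 in SPNS2 libraries and 0.269 and 0.180 times in NC libraries. This ratio does not depend on library scaling, and an exact permutation test of 2 libraries against 2 cannot give a two-sided p below 0.333.

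Of 13 neighbours listed on 9p24, 9 had enough counts for the test, and 2 were called lower. Their median log2 fold change was 0.013, and INSL4, INSL6, RLN1 and RLN2 had no counts. JAK2, one of the JAK kinases of interferon signalling, fell to 11.5 ± 0.469 CPM in SPNS2 cells, against 19.9 ± 0.331 CPM in NC cells (log2 fold change -0.79, SE 0.12, edgeR adjusted p = 0.0163). UHRF2, a ubiquitin ligase of chromatin, fell to 87.9 ± 1.13 CPM, against 115 ± 8.86 CPM in NC cells (log2 fold change -0.38, edgeR adjusted p = 0.0343). PLGRKT, the tested gene nearest to CD274 on the other side, was at 14.7 ± 3.97 CPM in SPNS2 cells and 11.9 ± 0.754 CPM in NC cells (adjusted p = 0.397 by edgeR). RIC1 was at 33.5 ± 1.91 CPM in SPNS2 cells and 24.2 ± 2.53 CPM in NC cells (edgeR adjusted p = 0.0583), and was called higher by DESeq2 (0.0201) and limma-voom (0.0489). Of the others, AK3, RCL1, ERMP1, KIAA2026 and RANBP6 had adjusted p-values of 0.214 to 0.904 in the same edgeR fit. Without NC replicate 1, NC replicate 2, SPNS2 replicate 1 and SPNS2 replicate 2, in that order, the edgeR adjusted p of JAK2 was 0.0727, 0.0817, 0.0708 and 0.063, and that of UHRF2 was 0.121, 0.0572, 0.129 and 0.111.

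**Figure D2:**
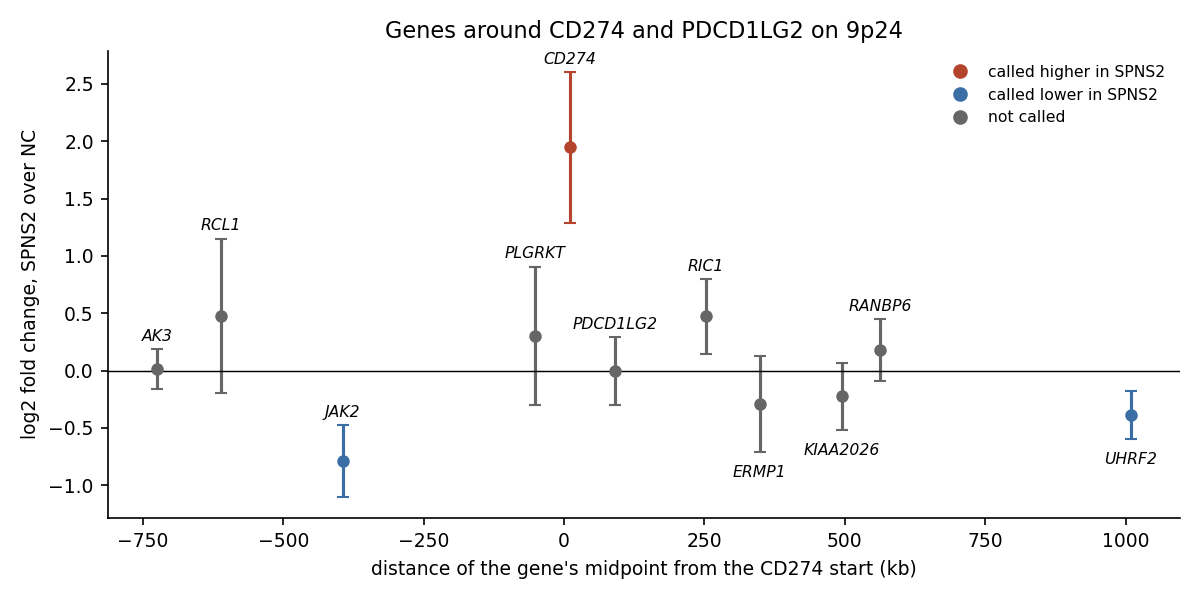
Log2 fold changes (SPNS2 over NC) with 95% intervals of the tested genes around CD274, against the distance of each gene's midpoint from the CD274 start in kb. CD274 stands at 1.95, PDCD1LG2 at -0.0048 and JAK2 at -0.79.

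CD276 was the member whose libraries agreed least. It had 2093 and 4190 counts in SPNS2 libraries and 4272 and 4349 in NC libraries, or 68.0 and 126 CPM against 133 and 129 CPM. SPNS2 replicate 1 was thus far below the other 3 libraries, and SPNS2 replicate 2 lay near the NC libraries. The SPNS2 libraries differed by 1.85-fold, and only 30 of 1719 tested genes within 0.5 of its log2 level (1.75%) had a larger gap between them, the median gap being 0.081 on the log2 scale. Its log2 fold change was -0.44 with a 95% interval from -1.24 to 0.36 (edgeR adjusted p = 0.355). Without SPNS2 replicate 2 it was -0.95 and called (adjusted p = 0.0177 by edgeR), and without SPNS2 replicate 1 it was -0.046 (adjusted p = 0.735), so that the choice of library decides this value. CD276 lies on 15q, whose tested genes had a median of -0.21.

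NT5E was by far the most abundant of the 10, with 50447 and 55954 counts in SPNS2 libraries and 53435 and 54900 in NC libraries. The groups overlapped, at 1658 ± 27.0 CPM in SPNS2 cells and 1649 ± 25.01 CPM in NC cells. Its log2 fold change was 0.0076 with a 95% interval from -0.093 to 0.11 (edgeR adjusted p = 0.905), the narrowest interval of the 10 genes. Changes above 1.08-fold and below 0.938-fold lay outside that interval. NT5E lies on 6q, where the median of the tested genes was -0.16, and with arm medians removed its value was 0.16 (adjusted p = 0.0506 by edgeR).

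PVR and NECTIN2 rose together. PVR, also known as the poliovirus receptor CD155, had 2796 and 2575 counts in SPNS2 libraries and 1532 and 1411 in NC libraries. Its level was 84.0 ± 9.65 CPM in SPNS2 cells and 44.9 ± 4.14 CPM in NC cells, a log2 fold change of 0.90 (SE 0.12, 95% interval 0.58 to 1.23, edgeR adjusted p = 0.0128). NECTIN2 (CD112) had 1742 and 1581 counts in SPNS2 libraries and 1169 and 1143 in NC libraries. It was at 52.0 ± 6.51 CPM in SPNS2 cells and 35.2 ± 1.77 CPM in NC cells, a log2 fold change of 0.56 (SE 0.12, 95% interval 0.24 to 0.88, edgeR adjusted p = 0.0382). For both genes every SPNS2 library lay above every NC library, which was so, in one direction or the other, for 8 of the 10 genes and for 66% of all tested genes.

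The call of PVR was lost without NC replicate 2 (edgeR adjusted p = 0.0549), where its log2 fold change was 0.81. NECTIN2 was closer to the threshold. Its call was lost without NC replicate 1, NC replicate 2 or SPNS2 replicate 1, and with arm medians removed (edgeR adjusted p = 0.0614). Log2 fold changes in those settings were 0.45 to 0.61. It was also lost with a replicate block (0.0581) and in a test against a fold of 1.2 (0.0935). Both genes lie on 19q, 183 kb apart (PVR from 44643798 to 44663583, NECTIN2 from 44846175 to 44889228), and the 634 tested genes of that arm had a median of 0.080. A stretch of PVR overlaps exons of CEACAM19, 3.44% of its exon length, and one of NECTIN2 overlaps an antisense gene, 3.42%. CEACAM19 itself had 47 and 22 counts in SPNS2 libraries and 77 and 81 in NC libraries, far fewer than PVR. The PVR count was 1.61 and 1.63 times that of NECTIN2 in SPNS2 libraries and 1.31 and 1.23 times in NC libraries.

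The NKG2D ligands did not move as a group: ULBP3 fell, and MICA, MICB and ULBP2 did not pass the test. Together the 4 genes summed to 80.4 ± 3.07 CPM in SPNS2 cells and 82.3 ± 3.35 CPM in NC cells. ULBP3, a ligand held in the membrane by a GPI anchor, had 59 and 56 counts in SPNS2 libraries and 142 and 201 in NC libraries. Its level was 1.80 ± 0.168 CPM in SPNS2 cells and 5.20 ± 1.09 CPM in NC cells, a log2 fold change of -1.53 (SE 0.26, 95% interval -2.22 to -0.84, edgeR adjusted p = 0.0222). The groups did not overlap, which was so for 66% of all tested genes. The log2 fold change of ULBP3 stayed between -1.73 and -1.30 over 15 alternatives. The call was lost without NC replicate 2 (edgeR adjusted p = 0.086), SPNS2 replicate 1 (0.0705) or SPNS2 replicate 2 (0.0842).

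ULBP3 shares 12.4% of its 50-base words with other genes in the GENCODE 29 transcripts, mainly with RAET1K, so that reads could be divided between them. RAET1K had 56 and 55 counts in SPNS2 libraries and 26 and 65 in NC libraries. The sum of both genes was 3.53 ± 0.289 CPM in SPNS2 cells and 6.57 ± 1.88 CPM in NC cells. ULBP3 and ULBP2 lie 114 kb apart on 6q (150063150 to 150069095 and 149942000 to 149949235), and the ULBP3 count was 0.174 and 0.114 times that of ULBP2 in SPNS2 libraries and 0.299 and 0.402 times in NC libraries.

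ULBP2 had 340 and 493 counts in SPNS2 libraries and 475 and 500 in NC libraries, at 12.9 ± 2.64 CPM in SPNS2 cells and 14.8 ± 0.0294 CPM in NC cells. SPNS2 replicate 1 was the lowest library and SPNS2 replicate 2 lay near the NC libraries. Its log2 fold change was -0.20 with a 95% interval from -0.69 to 0.29 (edgeR adjusted p = 0.487). Without SPNS2 replicate 1 it was 0.011. ULBP2 shares 32.2% of its 50-base words with RAET1L and RAET1G, and its own value is uncertain for that reason. The 3 genes summed to 17.6 ± 2.99 CPM in SPNS2 cells and 21.3 ± 0.517 CPM in NC cells (log2 fold change of the sum -0.28, edgeR adjusted p = 0.27).

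MICA and MICB, which lie 79.6 kb apart on 6p, leaned in opposite directions without passing the test. MICA had 659 and 707 counts in SPNS2 libraries and 767 and 878 in NC libraries, at 21.3 ± 0.154 CPM in SPNS2 cells and 25.01 ± 1.53 CPM in NC cells (log2 fold change -0.23, 95% interval -0.52 to 0.052, edgeR adjusted p = 0.193). MICB had 1351 and 1500 counts in SPNS2 libraries and 1179 and 1271 in NC libraries, at 44.4 ± 0.756 CPM in SPNS2 cells and 37.3 ± 0.702 CPM in NC cells (log2 fold change 0.25, 95% interval 0.037 to 0.47, edgeR adjusted p = 0.0942). In neither gene did the groups overlap, which was so for 66% of all tested genes. The MICB count was 2.05 and 2.12 times that of MICA in SPNS2 libraries and 1.54 and 1.45 times in NC libraries, and the exact permutation test of this ratio cannot give a p below 0.333. The sum of both was 65.7 ± 0.602 CPM in SPNS2 cells and 62.3 ± 2.23 CPM in NC cells, with a log2 fold change of 0.077 (edgeR adjusted p = 0.478). Their transcripts share few 50-base words with any other gene (2.64% of those of MICA and 2.94% of those of MICB). MICA overlaps exons of HCP5 over 2.60% of its length, and HCP5 had 0 and 28 counts in SPNS2 libraries and 22 and 53 in NC libraries.

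**Figure D3:**
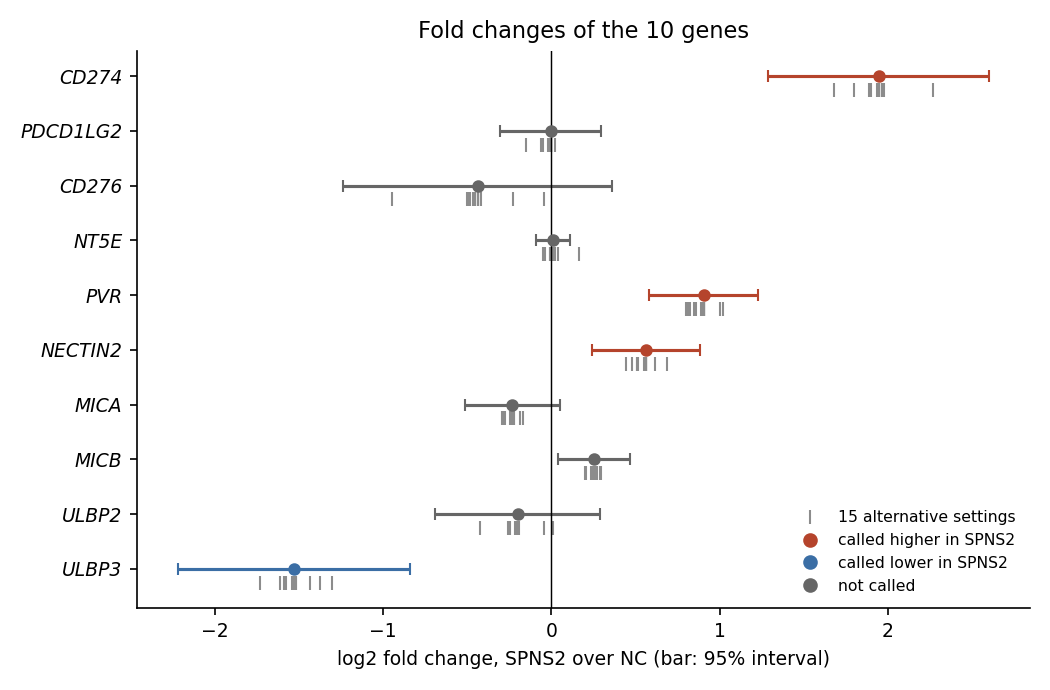
Log2 fold changes of the 10 genes (SPNS2 over NC), with the 95% interval as a bar and the 15 alternative settings as ticks under it. CD274, PVR and NECTIN2 lie to the right of 0 and ULBP3 to the left with their whole interval, and the ticks of CD276 spread from -0.95 to -0.046.

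Levels of different genes can be set side by side only per length of transcript, here as CPM per kb of merged exons in GENCODE 29. NT5E led in both groups at 366 CPM per kb in SPNS2 cells and 364 in NC cells. In SPNS2 cells the order went on with PVR (23.9), CD276 (17.5), MICB (15.9), NECTIN2 (13.9), ULBP2 (9.57), MICA (8.93), PDCD1LG2 (6.77), CD274 (3.39) and ULBP3 (1.82 CPM per kb). In that order the libraries of CD276 overlapped those of its neighbours PVR and MICB, and those of ULBP2 overlapped those of MICA. In NC cells it went on with CD276 (23.7), MICB (13.3), PVR (12.7), ULBP2 (10.9995), MICA (10.5), NECTIN2 (9.40), PDCD1LG2 (6.80), ULBP3 (5.26) and CD274 (0.879 CPM per kb), and of these neighbours the libraries of MICB and PVR overlapped. CD274 thus stood last in NC cells and above ULBP3 in SPNS2 cells.

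Beside the 10 genes, 150 genes were read from lists of other ligands, of lymphocyte receptors, of genes that act on the ligands, of neighbours on 9p24 and of markers of blood cells and glioma. Of these, 102 were tested, and 12 (11.8%) were called higher, 24 (23.5%) lower and 66 were not called, beside 12.1% higher and 11.3% lower among all tested genes, the shares against which the counts of each list are to be read. With single libraries left out, 6 (without NC replicate 1), 7 (NC replicate 2), 8 (SPNS2 replicate 1) and 7 (SPNS2 replicate 2) were called higher, and 8, 7, 11 and 12, in the same order, were called lower.

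The other NKG2D ligands did not pass the test. ULBP1 was at 11.4 ± 1.51 CPM in SPNS2 cells and 11.3 ± 1.23 CPM in NC cells, with a 95% interval of the log2 fold change from -0.46 to 0.47 (edgeR adjusted p = 0.985). RAET1E was at 7.61 ± 1.66 CPM in SPNS2 cells and 5.32 ± 1.17 CPM in NC cells (edgeR adjusted p = 0.234), RAET1G at 4.70 ± 0.350 CPM in SPNS2 cells and 6.46 ± 0.609 CPM in NC cells (0.152), and RAET1L had 0 to 3 counts in each library. In the list of 13 genes that induce or shed these ligands, of 12 tested genes 4 passed upwards and 4 downwards (median log2 fold change 0.075). With arm medians removed 5 passed upwards and 1 downwards. These were 3 and 1 when NC replicate 1 was left out, 4 and 1 when NC replicate 2 was, and 3 and 2 when either SPNS2 library was. ADAM10, a protease that releases MICA and MICB from the cell surface, fell to 137 ± 1.98 CPM in SPNS2 cells, against 377 ± 18.9 CPM in NC cells (log2 fold change -1.46, SE 0.062, edgeR adjusted p = 0.0013). ADAM17, which cleaves them as well, was at 109 ± 1.84 CPM in SPNS2 cells and 98.0 ± 4.52 CPM in NC cells (adjusted p = 0.171 by edgeR). Further proteases known to cleave MICA rose: ADAM9 to 692 ± 29.4 CPM, against 438 ± 3.57 CPM in NC cells (adjusted p = 0.0041 by edgeR), and MMP14 to 2064 ± 14.98 CPM, against 1314 ± 142 CPM in NC cells (0.0113).

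HSF1, the heat shock factor whose letters stand in the MICA and MICB windows, rose to 75.0 ± 5.26 CPM in SPNS2 cells, against 49.9 ± 6.04 CPM in NC cells (log2 fold change 0.59, edgeR adjusted p = 0.0316). PDIA6, a disulfide isomerase that acts on MICA before it is shed, fell to 451 ± 27.4 CPM, against 571 ± 30.6 CPM in NC cells (log2 fold change -0.34, edgeR adjusted p = 0.0354). Without NC replicate 1, NC replicate 2, SPNS2 replicate 1 and SPNS2 replicate 2, in that order, the edgeR adjusted p of HSF1 was 0.0934, 0.0478, 0.0702 and 0.113, and that of PDIA6 was 0.128, 0.0755, 0.0567 and 0.101. The call of PDIA6 was also lost with arm medians removed (0.176).

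Of 24 genes that set the transcription or stability of PD-L1, 7 were called lower and 0 higher, at a median of -0.25 on the log2 scale, where 11.3% of all tested genes were lower. That share belongs to the same edgeR fit, in which 4171 genes were called in either direction, against 3278 with arm medians removed. The 7 lower calls became 4 with arm medians removed. They became 3 when NC replicate 1 or SPNS2 replicate 1 was left out, 2 when NC replicate 2 was, and 5 when SPNS2 replicate 2 was. Calls over the whole table also became fewer with a library left out, as given in the last section. HIF1A, the oxygen-regulated subunit of hypoxia-inducible factor, fell to 900 ± 28.0 CPM in SPNS2 cells, against 1516 ± 19.1 CPM in NC cells (log2 fold change -0.75, edgeR adjusted p = 0.0023). SOCS3 and SOCS1, feedback inhibitors of JAK kinases, fell to 52.9 ± 3.05 and 0.695 ± 0.304 CPM in SPNS2 cells, against 112 ± 3.39 and 4.56 ± 0.984 CPM in NC cells (edgeR adjusted p = 0.0032 and 0.0173). The call of SOCS1 was lost without NC replicate 2 (adjusted p = 0.072 by edgeR). IRF1, which binds letters such as those in the CD274 window, was at 38.4 ± 5.65 CPM in SPNS2 cells and 33.3 ± 0.344 CPM in NC cells. Its log2 fold change was 0.21 with a 95% interval from -0.14 to 0.56 (edgeR adjusted p = 0.319), and -0.22 with arm medians removed. CMTM6, which keeps the PD-L1 protein at the cell surface, was at 212 ± 0.134 CPM in SPNS2 cells and 209 ± 2.78 CPM in NC cells (interval -0.12 to 0.16, edgeR adjusted p = 0.815). CD80, a B7 protein that binds PD-L1 on the same cell, had 30 and 5 counts in SPNS2 libraries and 48 and 101 in NC libraries (edgeR adjusted p = 0.188).

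In the remaining lists, single genes stood out more than the lists did. Of 8 tested B7 and butyrophilin genes 1 rose and 1 fell. VSIR, which encodes the checkpoint protein VISTA, had 2 and 0 counts in SPNS2 libraries and 100 and 141 in NC libraries, a ratio of NC to SPNS2 of 117.6 (95% exact counting interval 32.2 to 977, for counting error only). BTN2A2, a butyrophilin, rose to 15.6 ± 1.37 CPM in SPNS2 cells, against 8.80 ± 0.926 CPM in NC cells (edgeR adjusted p = 0.0288), and lost its call without NC replicate 1 (0.0758), NC replicate 2 (0.118), SPNS2 replicate 1 (0.0993) or SPNS2 replicate 2 (0.0718). NECTIN3, a nectin that binds PVR and NECTIN2, rose to 122 ± 2.56 CPM, against 71.2 ± 2.94 CPM in NC cells (log2 fold change 0.78, SE 0.066, edgeR adjusted p = 0.0047). CADM1, an adhesion protein recognised by CRTAM of NK and T cells, fell to 185 ± 52.9 CPM, against 381 ± 39.7 CPM in NC cells (edgeR adjusted p = 0.0358). Its call was lost without NC replicate 1 or NC replicate 2, and log2 fold changes with single libraries left out were -1.36 to -0.78. It was also lost with arm medians removed (0.112), a robust fit (0.0629), a replicate block (0.0766) and a test against a fold of 1.2 (0.0582).

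In the list of other NK cell ligands, 3 of 7 tested genes were called higher and 2 lower, and their median log2 fold change was 0.33. The higher genes were BAG6, a ligand of NKp30, at 266 ± 0.451 CPM in SPNS2 cells and 212 ± 12.4 CPM in NC cells (edgeR adjusted p = 0.0315), NID1, a ligand of NKp44, at 105 ± 6.84 CPM in SPNS2 cells and 76.1 ± 1.33 CPM in NC cells (0.0200), and CLEC2B, the ligand of NKp80, with 63 and 51 counts in SPNS2 libraries and 11 and 5 in NC libraries (0.0288). None of the 3 was called without NC replicate 1, NC replicate 2 or SPNS2 replicate 2, and without SPNS2 replicate 1 NID1 alone was (0.0406). The lower genes were ICAM1, the ligand of LFA-1, which fell to 25.6 ± 2.61 CPM in SPNS2 cells, against 47.8 ± 0.884 CPM in NC cells (edgeR adjusted p = 0.0106), and CD58, the ligand of CD2, which fell to 7.16 ± 0.209 CPM, against 15.8 ± 1.98 CPM in NC cells (0.0138). The call of ICAM1 was lost without NC replicate 1 (edgeR adjusted p = 0.0513), and that of CD58 without NC replicate 2 (0.0633), SPNS2 replicate 1 (0.0553) or SPNS2 replicate 2 (0.0633). NCR3LG1, another ligand of NKp30, was kept in the list of B7 and butyrophilin genes. It leaned the other way from BAG6 without passing the edgeR test (log2 fold change -0.84, edgeR adjusted p = 0.0768). Its level was 9.49 ± 2.90 CPM in SPNS2 cells and 16.9 ± 0.366 CPM in NC cells. NCR3LG1 was called lower by DESeq2 (adjusted p = 0.0206) but not by limma-voom (0.0567). In the list of HLA class I genes, which hold NK cells in check, none of 6 tested genes was called, and the median was -0.0096. B2M, their shared light chain, was at 811 ± 23.7 CPM in SPNS2 cells and 869 ± 28.7 CPM in NC cells (edgeR adjusted p = 0.23).

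Around NT5E, 1 of 10 tested genes of ATP and adenosine handling was called higher and 2 lower (median log2 fold change -0.10), and neither lower call held without any 1 of the 4 libraries. ADORA2B, a receptor of adenosine, rose 2.30-fold to 80.9 ± 2.49 CPM in SPNS2 cells, against 35.2 ± 0.0230 CPM in NC cells (95% interval of the fold 2.01 to 2.63, edgeR adjusted p = 0.0025). ADA, which degrades adenosine, fell to 4.18 ± 0.313 CPM, against 8.76 ± 0.408 CPM in NC cells (edgeR adjusted p = 0.0195), and lost its call without NC replicate 1 (0.0841), NC replicate 2 (0.0727), SPNS2 replicate 1 (0.0742) or SPNS2 replicate 2 (0.0587). SLC29A1, a transporter of adenosine, fell to 66.1 ± 1.42 CPM, against 83.0 ± 0.347 CPM in NC cells (edgeR adjusted p = 0.0295), and was at 0.118, 0.108, 0.103 and 0.120 without those libraries in the same order. Among 10 tested genes of other checkpoint ligands and enzymes, 1 was called higher and 4 lower (median log2 fold change -0.35). The lower calls became 1 when either NC library was left out, 2 when SPNS2 replicate 1 was, and 0 when SPNS2 replicate 2 was. The higher gene was CD24, a ligand of Siglec-10, with 24 and 51 counts in SPNS2 libraries and 6 and 8 in NC libraries (edgeR adjusted p = 0.0469). It lost its call without NC replicate 1 (0.174), NC replicate 2 (0.148), SPNS2 replicate 1 (0.0725) or SPNS2 replicate 2 (0.239), with limma-voom (0.079) and without a filter (0.0617). LGALS3 (galectin 3), a ligand of LAG3, an inhibitory receptor of T cells, fell to 130 ± 2.07 CPM, against 203 ± 18.3 CPM in NC cells (edgeR adjusted p = 0.0118), and lost its call without SPNS2 replicate 2 (0.0537). Of 13 lymphocyte receptors of these ligands, PDCD1, CTLA4, KLRC1, NCR1 and NCR3 had no counts in any library, and none of the 3 that could be tested was called.

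**Figure D4:**
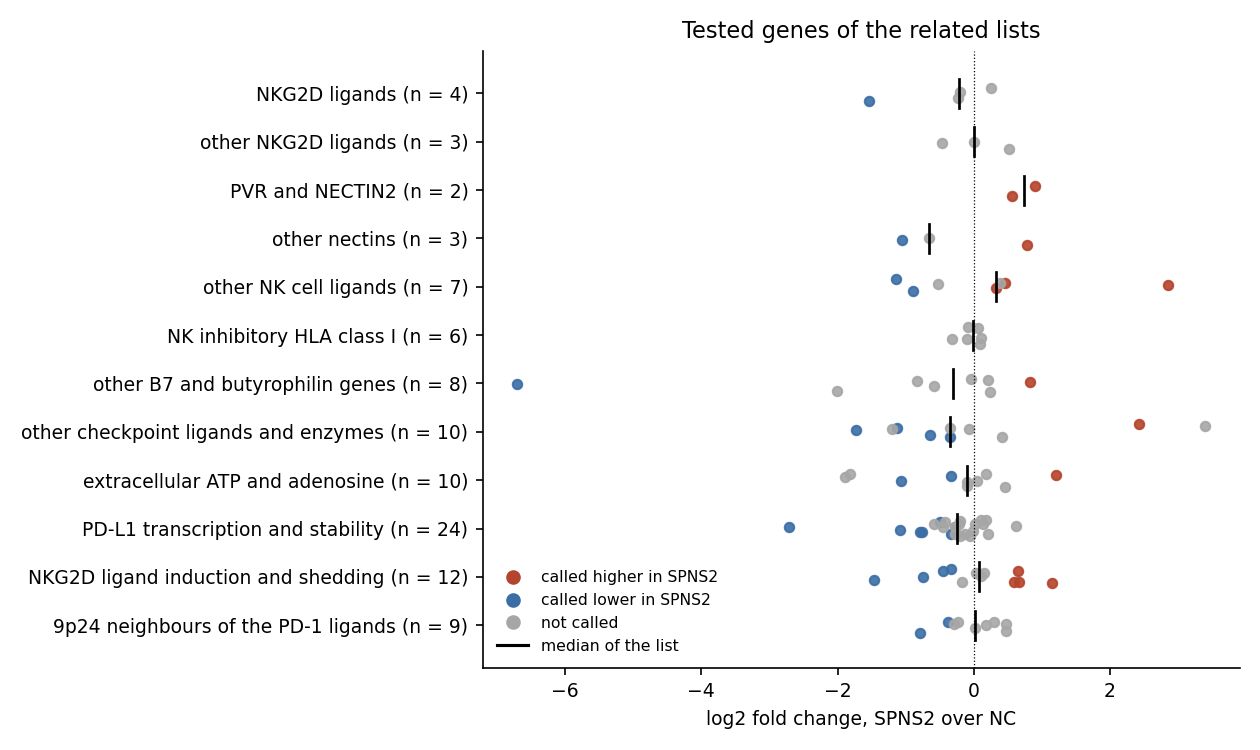
Log2 fold changes (SPNS2 over NC) of the tested genes in each list, with a black bar at the list's median. In the list on PD-L1 transcription and stability the 7 called genes of 24 lie to the left of 0. In the same fit 11.3% of all tested genes were called lower. With arm medians removed 4 of the 24 were called lower, and the genes called over the whole table went from 4171 to 3278. With single libraries left out fewer were called, both in this list and over the whole table. VSIR stands apart at -6.70.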

How the data were processed

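RNA of 4 libraries was sequenced. The authors deposited 1 table of unnormalized whole-number counts, with a row for each Ensembl gene. The submitters' processing notes name the build hg38 and the tools HISAT2 2.2.1, Trim Galore 0.6.9 and featureCounts 0.3. For the annotation, the strand setting and multi-mapping reads, the choices were not given in the sources used here, so overlapping genes and near-identical copies cannot be separated with certainty. One row without counts was left out. Genes were kept by filterByExpr (minimum count 10, minimum total 15) and compared by edgeR 4.0.16 in R 4.3.3 (TMM, estimateDisp, glmQLFit, glmQLFTest, group as the only term). Standard errors are the log2 fold change divided by the square root of F. The test was also run on simulated counts, whose spread followed the dispersion trend and not that of single genes. The outcome of that run is not reported here. Positions and exon lengths are from GENCODE 29 (GRCh38, the same assembly as hg38), and windows around start sites from RefSeq. Chromosome arms were divided at approximate centromere positions.

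The genes and lists were chosen with earlier results of these data known. Named were the 10 genes, up to 4 genes of the smallest p in each list, all tested neighbours on 9p24 and genes whose product acts on a member's product. IRF1, HSF1, BAG6 and CD24 were chosen after their values were seen. Some genes of the lists are not reported here by name. Alternatives were DESeq2 1.42.0, limma-voom (limma 3.58.1), a robust fit, RLE, upper-quartile and no factors, no filter, a minimum mean of 1 CPM, glmTreat against a fold of 1.2, a replicate block, arm medians removed, summed copies and each library left out. Intervals from counts cover counting error only.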

Additional observations from a re-analysis of the deposited data

How the results depend on the processing

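Of the 10 genes, CD274 was called in all 15 alternatives, PVR in 14, ULBP3 in 11 and NECTIN2 in 9, and CD276 in 1. With each library left out, the genes called over the whole table numbered 1712 to 2144, the members called higher 1 to 3 and lower 0 to 1, and the related genes called higher 6 to 8 and lower 7 to 12. Without NC replicate 2, only CD274 of the 10 was called, and without SPNS2 replicate 2 the lower call was CD276, not ULBP3. With a replicate block, 1976 genes were called (4171 without), 2 members higher and 0 lower (edgeR adjusted p = 0.0581 for NECTIN2 and 0.0658 for ULBP3), and 6 related genes higher and 11 lower. The same-numbered libraries had a correlation of -0.060 in their deviations from the group means. This shows no strong shared effect of the replicate number. It cannot tell whether same-numbered libraries were grown or prepared together, which the labels do not say. With glmTreat, which asks for more than a fold of 1.2, 2394 genes were called, and 6 related genes higher and 15 lower. With arm medians removed, 3278 genes were called, and 12 related genes higher and 17 lower. The calls of a list in an alternative setting are to be read beside the calls over the whole table in that setting. The settings named above beside a lost call are not a full list for every gene, since the replicate block and glmTreat removed further calls.

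Some values of genes that were not called changed sign, most of them near 0. With single libraries left out, NT5E ranged from -0.010 to 0.041, PDCD1LG2 from -0.0096 to 0.018, ULBP2 from -0.42 to 0.011, ULBP1 from -0.12 to 0.14, HCST from -6.60 to 0.42 and LYZ from -6.60 to 0.21, the low ends of the last 2 being fitted values of genes with 0 counts in SPNS2 replicate 2. NT5E was at -0.039 with upper-quartile factors, -0.048 with library totals and -0.0052 with a minimum mean of 1 CPM. The sum of MICA and MICB was at 0.077, while MICA alone stayed between -0.29 and -0.17 over 15 alternatives. ULBP1 was at -0.041 with upper-quartile factors, -0.050 with library totals and -0.0068 with a minimum mean of 1 CPM. AK3 was at -0.033 with upper-quartile factors, -0.043 with library totals and -0.13 with arm medians removed, where B2M was at 0.12, IRF1 at -0.22 and CMTM6 at -0.070. CMTM6 was at -0.026 with upper-quartile factors and -0.036 with library totals. None of these was called in either setting, and the cause was not tested.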
